A study of Homo sapiens with 4 samples.

Results

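The proteasome subunits were the genes whose symbol is PSM followed by a letter from A to G and a number, and whose probes reached a detection p-value below 0.05 on 2 or more of the 4 arrays. Of 44 such genes named in the probe annotation, 41 were measured, by 61 of their 70 probes, out of 11389 genes measured in all. The cells were MDA-LM2, a lung-tropic metastatic line derived from MDA-MB-231 human breast cancer cells. They had been transfected by lipofection with siRNA against the transcription factor SOX4 (siSOX4, 2 arrays) or with control siRNA (siControl, 2 arrays), and total RNA was taken 48 h later. All 4 samples share the parental line, the transfection reagent and the time. The series' design text speaks of 2 siRNAs that target SOX4. No label ties a sample number to either one, so the spread between the siSOX4 samples may hold a difference between siRNAs. Whether the samples of a group were grown as separate cultures is not stated, and errors and p-values therefore cover a spread that could be technical.

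The proteasome degrades proteins tagged with ubiquitin. Its core is a barrel of outer alpha rings, which gate the entry, and inner beta rings, which carry the proteolytic sites. At either end sits a regulatory cap, made of a base with ATPases that unfold the substrate and a lid that removes the ubiquitin chain. Interferon replaces the catalytic beta subunits by those of the immunoproteasome, which favours peptides for antigen presentation. Subunit genes are transcribed together in response to proteasome shortage through NFE2L1, a CNC-bZIP factor of the endoplasmic reticulum that is also called NRF1.

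SOX4 itself, on its 1 annotated probe, had log2 signals of 7.31 and 7.14 on siSOX4 samples 1 and 2 and of 7.61 and 7.54 on siControl samples 1 and 2. Both siSOX4 samples lay below both controls, but the difference of -0.35 ± 0.19 log2 units did not pass (limma's standard error, n = 2 per group; adjusted p = 0.487), so the extent of the knockdown is not settled by these arrays. Of the marker genes of the line, VIM, CD44, CAV1 and AXL were detected on all 4 arrays with raw signals from 4112 to 31150. ESR1, PGR and CDH1 were detected on no array, while EPCAM was detected on all 4, with raw signals of 234.9 to 380.0. Of the immune, endothelial and fibroblast markers, PTPRC, CDH5, VWF and DCN were detected on no array, CD3D on 1 and PDGFRB on 2. CD14, LYZ, PECAM1 and COL1A1 were detected on all 4, at raw signals of 97.58 to 416.2. KRT18, the remaining marker of the line, was also detected on all 4, but only at 170.7 to 220.8. Over all kept probes, the log2 gap between samples of a group had an SD of 0.43 for siSOX4 and of 0.26 for siControl; over the proteasome genes these SDs were 0.28 and 0.13.

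After siSOX4 the proteasome genes differed in both directions, and none passed the test. Their median absolute difference was 0.22 log2 units, where all genes give 0.21. Of the 41, 24 had a lower and 17 a higher mean signal, with a median log2 difference of -0.07 against -0.02 over all genes. With median scaling in place of quantile normalization these medians were -0.12 and -0.04, and with the authors' matrix values -0.13 and -0.03. Differences ran from -0.49 (PSMA1, an alpha ring subunit) to 0.48 (PSMD9, an assembly chaperone on a dim probe). PSMD9 was at 0.31 with the authors' matrix values and at 0.33 with no background correction, where PSMB5 (0.38) and PSMB8 (0.37) were higher. On the probes used, no proteasome gene differed by more than 0.5 log2 units, which 13.9% of all genes did. Other kept probes of PSMB8 (0.54) and PSMB9 (0.51) did. The lowest bound of any 95% interval was -0.81 (PSMA1) and the highest was 1.00 (PSMD9). With limma and Benjamini-Hochberg adjustment over all kept probes, 0 of 41 genes had an adjusted p under 0.05, as did 0% of all genes, and the smallest among the 41 was 0.244. With 2 arrays per group, a gene that missed the threshold is not shown to be unchanged. At an unadjusted p under 0.05 there were 6 of 41 (14.6%), near the background of 14.8%. Of these 6, 5 were lower (background 7.39%) and 1 was higher (background 7.44%). Both siSOX4 samples lay below both controls for 18 genes (43.9%, where all genes give 25.1%) and above both for 6 (14.6%, where all genes give 22.7%). With the mean of all kept probes, 15 of 41 lay below (all genes 24.8%) and 9 above (22.8%). With median scaling 18 lay below (25.8%) and 4 above (20.7%). With the authors' matrix values 17 lay below (26.0%) and 4 above (19.7%). Set against the same control means, siSOX4 sample 1 had a median of -0.14 over the 41 genes, and the median for siSOX4 sample 2 was 0.01. Without siSOX4 sample 1, 15 of 41 genes lay above both controls, where all genes give 39.3%. Without siSOX4 sample 2, 28 of 41 lay below both, where all genes give 44.2%.

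Leaving out a siSOX4 sample changed the calls. Without siSOX4 sample 1, 6 proteasome genes passed, against a background of 11.7% of all genes, and without siSOX4 sample 2, 12 passed, against 24.3%, in a fit where the spread comes from the controls alone. Without siControl sample 1, and likewise without siControl sample 2, 0 passed (background 0%). PSMA1 was the 1 gene that passed in both of the first 2 settings, with -0.37 (adjusted p = 0.0272) and -0.61 (adjusted p = 7.1e-05, limma).

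**Figure D1:**
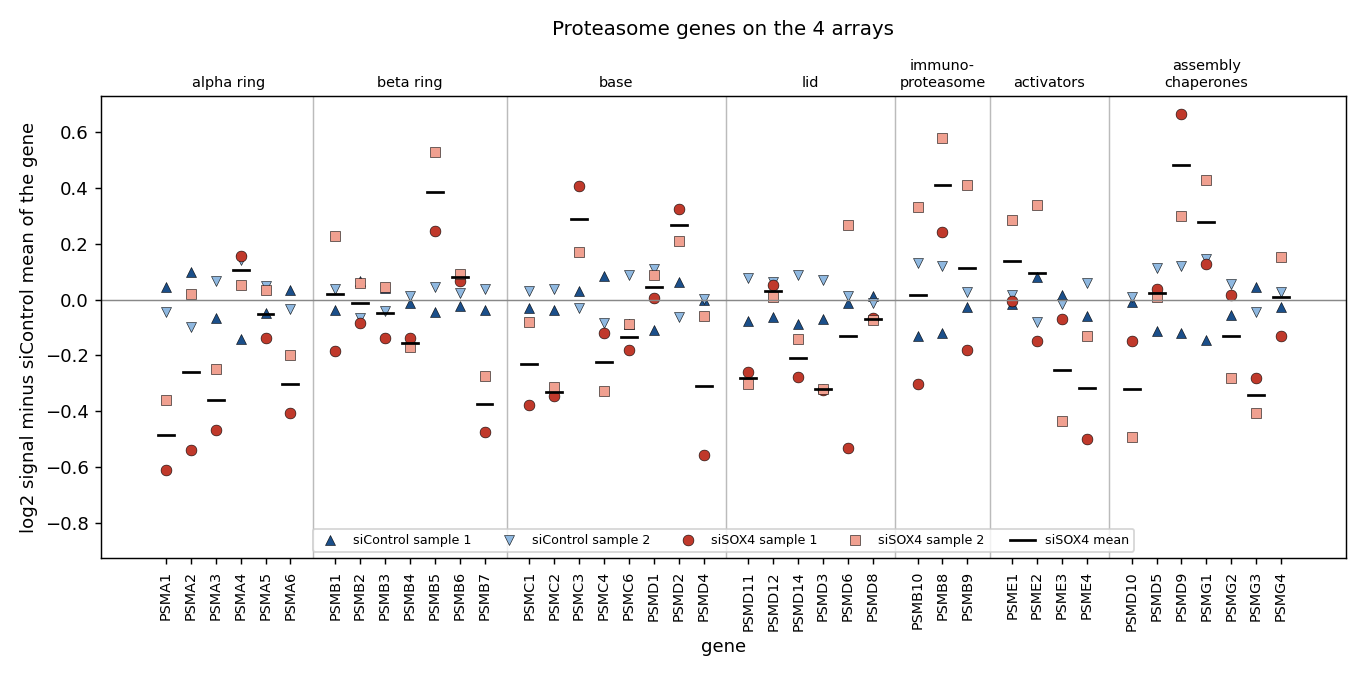
Log2 signal of the 41 measured proteasome genes on each of the 4 arrays, minus the gene's siControl mean (y axis), by class along the x axis; markers are single arrays and the black bar is the siSOX4 mean. PSMA1, PSMA3, PSMA6 and PSMB7 have both siSOX4 samples below both controls, PSMB5 and PSMD9 have both above, and for PSMD6 and PSMB10 the siSOX4 samples lie on opposite sides of the controls.

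The promoters of the measured genes were searched for letters that bear on SOX4 or on known control of the proteasome. RefSeq windows from 250 bases before the gene's start to 50 after it (GRCh38.p14), were matched for 36 of the 41 genes, and both strands were searched. AACAANG, a loose form of the letters that SOX factors bind, occurred in 3 of 36 windows (8.33%), those of PSMB5, PSMD1 and PSMD3, against 12.1% of all 35116 windows. Of these 3 genes, 1 had lower and 2 higher mean signal after siSOX4. TGACNNNGC, the antioxidant response element read by NFE2L1 and NFE2L2, occurred in 13 (36.1%, against 13.3%), of which 5 had lower and 8 higher signal. CCAAT, the NF-Y box, occurred in 16 (44.4%, against 34.6%), of which 12 had lower and 4 higher signal. The core of the interferon-stimulated response element, GAAA and again GAAA after any 2 bases, occurred in 6 (16.7%, against 3.57%). These were PSMB10, PSME1, PSME2, PSMA4, PSMB4 and PSMG4, of which 1 had lower and 5 higher signal. The 5 higher differences were 0.01 to 0.14 log2 units, each smaller than its standard error. Differences ran from -0.36 to 0.39 for the genes with CCAAT and from -0.32 to 0.48 for those with the antioxidant response element. Of all genes measured, 52.0% had lower signal. The 35116 windows that these shares are set against are not limited to the genes measured here. A match is a run of letters and not a shown binding site, and none of these shares was tested. The windows of 4 genes described below are shown 5′ to 3′ on the gene's strand, with the matched letters in capitals: a lower alpha ring gene with a pair of CCAAT boxes (PSMA3), a lower lid gene with CCAAT, antioxidant response element and SOX matches (PSMD3), a higher catalytic subunit gene with SOX matches (PSMB5) and a higher assembly chaperone gene (PSMD9). They lie at chr14:58244593-58244892 (plus strand), chr17:39980557-39980856 (plus strand), chr14:23035171-23035470 (minus strand) and chr12:121888540-121888839 (plus strand).
PSMA3 promoter: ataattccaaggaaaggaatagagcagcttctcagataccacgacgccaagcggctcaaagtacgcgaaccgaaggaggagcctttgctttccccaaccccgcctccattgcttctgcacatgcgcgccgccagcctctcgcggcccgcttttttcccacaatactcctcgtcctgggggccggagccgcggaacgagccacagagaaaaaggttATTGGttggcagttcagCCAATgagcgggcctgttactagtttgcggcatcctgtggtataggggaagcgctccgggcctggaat
PSMD3 promoter: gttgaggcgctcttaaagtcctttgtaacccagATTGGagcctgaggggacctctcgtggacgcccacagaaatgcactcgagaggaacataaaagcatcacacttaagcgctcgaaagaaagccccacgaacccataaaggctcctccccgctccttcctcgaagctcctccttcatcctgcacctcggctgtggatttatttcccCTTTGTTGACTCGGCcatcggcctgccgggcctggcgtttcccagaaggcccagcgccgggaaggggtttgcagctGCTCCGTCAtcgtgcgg
PSMB5 promoter: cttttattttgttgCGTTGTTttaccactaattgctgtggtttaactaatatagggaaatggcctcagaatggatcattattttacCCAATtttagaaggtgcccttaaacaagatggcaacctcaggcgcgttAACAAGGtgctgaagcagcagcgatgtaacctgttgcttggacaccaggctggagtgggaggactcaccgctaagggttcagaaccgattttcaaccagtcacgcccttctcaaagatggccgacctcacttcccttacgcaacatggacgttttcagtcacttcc
PSMD9 promoter: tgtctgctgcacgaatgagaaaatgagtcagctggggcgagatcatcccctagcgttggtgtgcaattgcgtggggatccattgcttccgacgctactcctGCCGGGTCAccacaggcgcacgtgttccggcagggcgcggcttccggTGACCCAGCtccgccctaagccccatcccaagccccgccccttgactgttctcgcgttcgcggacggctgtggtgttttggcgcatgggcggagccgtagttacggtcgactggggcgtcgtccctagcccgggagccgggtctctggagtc
In PSMD3 the SOX match at -43 and the antioxidant response element at -37 share 1 base, and its other matches begin at -217 (CCAAT) and 34 (antioxidant response element), counted from 1 at the first transcribed base. In PSMB5 the SOX matches begin at -236 and -116 and the CCAAT box at -164. In PSMA3 the CCAAT boxes begin at -35 and -18, and in PSMD9 the antioxidant response elements begin at -149 and -102. The windows of PSMA1 and PSMB8, which had the lowest and highest differences among core and immunoproteasome genes, held none of the 4 kinds of letters.

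Alpha ring genes had the lowest median of any class, -0.28 over 6 genes, with 5 lower and 1 higher. The alpha ring gene PSMA7 had no named probe and is not among them. PSMA1 had log2 signals of 11.59 and 11.84 on the siSOX4 samples and of 12.25 and 12.16 on the controls. Both siSOX4 samples were below both controls, and the difference of -0.49 ± 0.14 log2 units, or 1.40-fold, had the smallest adjusted p of the 41 genes (0.244, limma). PSMA3 had 11.98 and 12.19 against 12.38 and 12.51 in the controls, again without overlap, a difference of -0.36 ± 0.14 (adjusted p = 0.338). PSMA6 was also below both controls, with a difference of -0.30 ± 0.13 (adjusted p = 0.373). These 3 genes also had an unadjusted p under 0.05 (0.00902, 0.031 and 0.0434, limma). For PSMA2 (-0.26 ± 0.23), PSMA5 (-0.05 ± 0.13) and PSMA4 (0.10 ± 0.14) the siSOX4 samples overlapped the controls. The alpha ring median was -0.44 in siSOX4 sample 1 and -0.09 in sample 2, set against the same control means, and 3 of the 6 genes were higher than their control mean in sample 2. Without siSOX4 sample 1 the median was thus -0.09, and without sample 2 it was -0.44.

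In the beta rings, which hold the active sites, the members went apart and the median was -0.01 over 7 genes. PSMB5, the subunit with chymotrypsin-like activity and the main target of bortezomib, had log2 signals of 10.85 and 11.14 on the siSOX4 samples and of 10.56 and 10.65 on the controls. Both siSOX4 samples were above both controls, by 0.39 ± 0.16 log2 units or 1.31-fold (adjusted p = 0.362, limma), and PSMB5 was the 1 higher gene with an unadjusted p under 0.05. PSMB7, which carries the trypsin-like activity, had 11.97 and 12.17 against 12.41 and 12.48. It lay below both controls in both siSOX4 samples, with a difference of -0.38 ± 0.13 or 1.30-fold (adjusted p = 0.310, limma). PSMB6, with the caspase-like activity, had 12.08 and 12.11 against 11.99 and 12.04, a difference of 0.08 ± 0.12 that is smaller than its error. Thus of the 3 catalytic subunits 1 had lower and 2 had higher signal, and none passed. The structural subunit gene PSMB4 was below both controls by -0.16 ± 0.14, and PSMB1 (0.02), PSMB2 (-0.01) and PSMB3 (-0.05) overlapped them. Without siSOX4 sample 1 the PSMB5 difference was 0.53 and that of PSMB7 was -0.27. Without siSOX4 sample 2 they were 0.24 and -0.48.

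**Figure D2:**
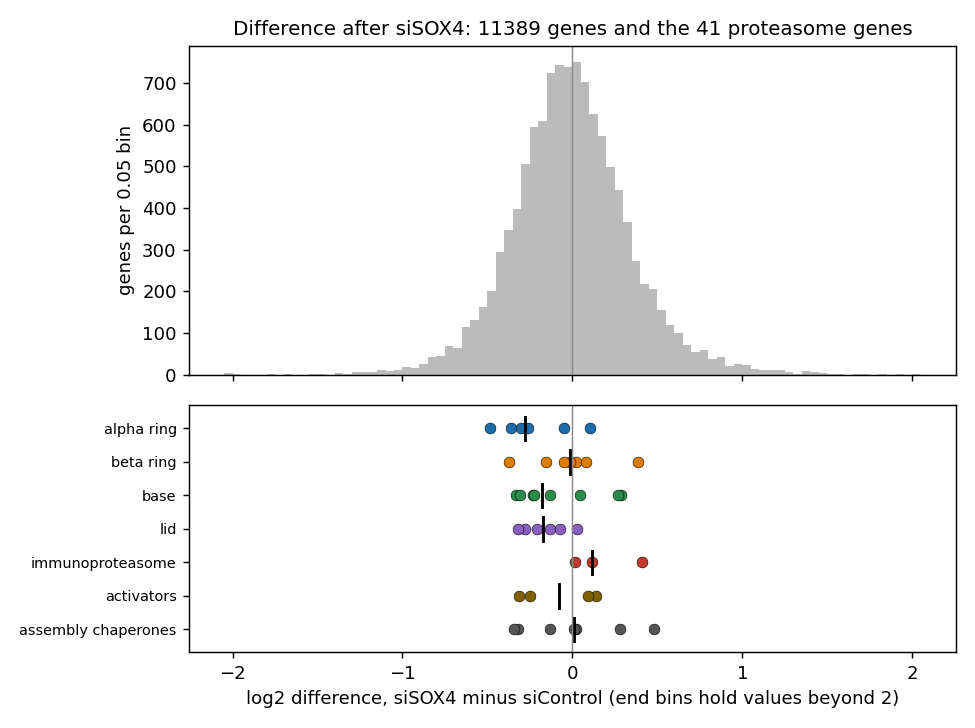
Top, number of genes (y axis) by log2 difference, siSOX4 minus siControl (x axis), for the 11389 genes measured; bottom, the 41 proteasome genes by class on the same axis, with a black bar at each class median. On the probes used, the proteasome genes sit within 0.5 log2 units of 0, with the alpha ring median at -0.28 and the immunoproteasome median at 0.11.

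Of 14 base and lid genes, 10 had lower signal, as did 52.0% of all genes. On the probes used, both siSOX4 samples were below both controls in 9 of the 14, where all genes give 25.1%. In 2, PSMC3 and PSMD2, they were above both, where all genes give 22.7%. The base median was -0.18 over 8 genes. PSMC2, an ATPase subunit, had log2 signals of 11.30 and 11.34 against 11.61 and 11.69 in the controls. The siSOX4 samples were nearly equal and below both controls, and the difference was -0.33 ± 0.13 (adjusted p = 0.352, limma; unadjusted p = 0.036). PSMD4, the base's ubiquitin receptor, had 10.03 and 10.52 against 10.58 and 10.59, a difference of -0.31 ± 0.19 (adjusted p = 0.541) that was larger in siSOX4 sample 1. Its 2 other kept probes each gave -0.11 with overlap, and the mean of its probes gave -0.17. The ATPase gene PSMC3 (0.29 ± 0.16) and the scaffold gene PSMD2 (0.27 ± 0.14) went the other way. The ATPase genes PSMC1 (-0.23), PSMC4 (-0.22) and PSMC6 (-0.13) were below both controls on the probes used. Another kept probe overlapped the controls for PSMC1 (-0.19), PSMC4 (-0.10) and PSMC6 (0.04), while a further PSMC4 probe (-0.24) lay below both. PSMD1, a scaffold of the base, differed by 0.05.

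The lid median was -0.17 over 6 genes. PSMD3 had log2 signals of 7.47 and 7.48 on the siSOX4 samples and of 7.73 and 7.87 on the controls, a difference of -0.32 ± 0.19 (adjusted p = 0.513, limma) without overlap. PSMD11, a lid scaffold subunit, had 6.57 and 6.53 against 6.75 and 6.91, a difference of -0.28 ± 0.20 (adjusted p = 0.595) with the same order. PSMD14, the deubiquitinase that cuts the chain from the substrate, was below both controls by -0.21 ± 0.14. PSMD8 (-0.07) was below both by less than its error, and PSMD12 (0.03) overlapped them. PSMD6, chosen after its values were seen, had the widest gap between siSOX4 samples of all 41 genes, with 11.64 in sample 1 and 12.44 in sample 2 around controls at 12.16 and 12.18. Its group difference of -0.13 ± 0.24 therefore describes neither sample.

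Immunoproteasome genes had a median of 0.11 over 3 genes, all with a higher mean signal on the probes used, where their siSOX4 samples lay apart. PSMB8, which takes the place of PSMB5, had log2 signals of 8.97 and 9.31 on the siSOX4 samples and of 8.61 and 8.85 on the controls. It lay above both controls, by 0.41 ± 0.19 log2 units or 1.33-fold (adjusted p = 0.424, limma), and its 2 other kept probes gave 0.54 and 0.37. PSMB9, which takes the place of PSMB6, had 7.38 and 7.98 against 7.54 and 7.59, so on this probe siSOX4 sample 1 was below and sample 2 above the controls (0.11 ± 0.24, adjusted p = 0.882). Its dimmer probe showed no such split, with 5.93 in both siSOX4 samples and 5.48 and 5.35 in the controls. With the mean of all kept probes, PSMB9 and with it the class median were at 0.31. PSMB10, the counterpart of PSMB7, had 10.46 and 11.10 against 10.63 and 10.90, with siSOX4 sample 1 below and sample 2 above the controls (0.01 ± 0.22, adjusted p = 0.985). Without siSOX4 sample 2 the class median was -0.18, and without sample 1 it was 0.41.

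On the probes used, sample 1 was below sample 2 of the same group for all 3 immunoproteasome genes in both groups (median gap -0.59 for siSOX4, -0.24 for siControl). Over all genes these gaps were -0.02 and -0.003. On the dimmer PSMB9 probe sample 1 was not below sample 2 in either group. The interferon-inducible activator genes PSME1 and PSME2 had a median gap of -0.39 for siSOX4 and of 0.06 for siControl. In the antigen processing list 8 of 11 genes were lower in siSOX4 sample 1 than in sample 2, with a median gap of -0.42, and 7 of 11 were lower in siControl sample 1 than in sample 2, with a median gap of -0.03. Core, base and lid genes showed a like share, 19 of 27 lower in siSOX4 sample 1 (median gap -0.14) and 18 of 27 lower in siControl sample 1 (median gap -0.06), where all genes give 52.4% and 50.6%. The part that this spread plays in the higher PSMB8 signal was not tested.

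Activators cap the core in place of the regulatory particle. PSME1, the alpha subunit of PA28, had log2 signals of 12.05 and 12.34 against 12.04 and 12.08 in the controls, and PSME2, its beta subunit, had 10.91 and 11.40 against 11.14 and 10.98. Both overlapped the controls (0.14 ± 0.14 and 0.09 ± 0.19, adjusted p = 0.728 and 0.875, limma). PSME3, the nuclear PA28 gamma, had 10.02 and 9.66 against 10.11 and 10.08, a difference of -0.25 ± 0.17 (adjusted p = 0.587) that was larger in siSOX4 sample 2. PSME4, the activator PA200, had 9.34 and 9.71 against 9.78 and 9.91, a difference of -0.32 ± 0.18 (adjusted p = 0.509) that was larger in sample 1. On the probes used, PSME3 and PSME4 were below both controls. The other kept probe of PSME3, with the same mean log2 signal of 9.97, gave -0.13 ± 0.18 with overlap. The class median of -0.08 lies between the higher PSME1 and PSME2 and the lower PSME3 and PSME4. The inhibitor gene PSMF1 was not well above background on any array, with raw signals of 62.32 to 72.39, nor was PSMA8, an alpha subunit of the testis. PSMB11, a beta subunit of the thymus, was detected on 1 array by 1 of its 2 probes.

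Assembly chaperones, which help build the particle and leave it, had a median of 0.01 over 7 genes. PSMD9, a chaperone of the base, had log2 signals of 7.24 and 6.87 against 6.46 and 6.69. It lay above both controls by 0.48 ± 0.22 or 1.40-fold (adjusted p = 0.414, limma). PSMG3, a chaperone of the alpha ring, had 6.29 and 6.17 against 6.62 and 6.53 and lay below both controls by -0.34 ± 0.20 (adjusted p = 0.517). PSMD10, the base chaperone also known as gankyrin, was below both controls by -0.32 ± 0.17 on the probe used. Its 3 probes ranged from -0.36 to -0.32, and the probe at -0.36 overlapped the controls. The core chaperone gene PSMG1 differed by 0.28 ± 0.18 with overlap, and PSMG2 (-0.13), PSMD5 (0.02) and PSMG4 (0.01) by less than their errors.

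Several kept probes were available for 16 of the 41 genes, and for 13 of them all probes had the same sign. Probes of a gene differed by a median of 0.14 log2 units and by at most 0.40, for PSMB9, whose dimmer probe gave 0.51 ± 0.20. The genes with opposite signs were PSMA4 (0.10 and -0.07), PSMC6 (-0.13 and 0.04) and PSME1 (0.14 and -0.08), all within 1 standard error of 0 on each probe. PSMA1's second probe gave -0.31 ± 0.16 and that of PSMA3 -0.23 ± 0.15.

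**Figure D3:**
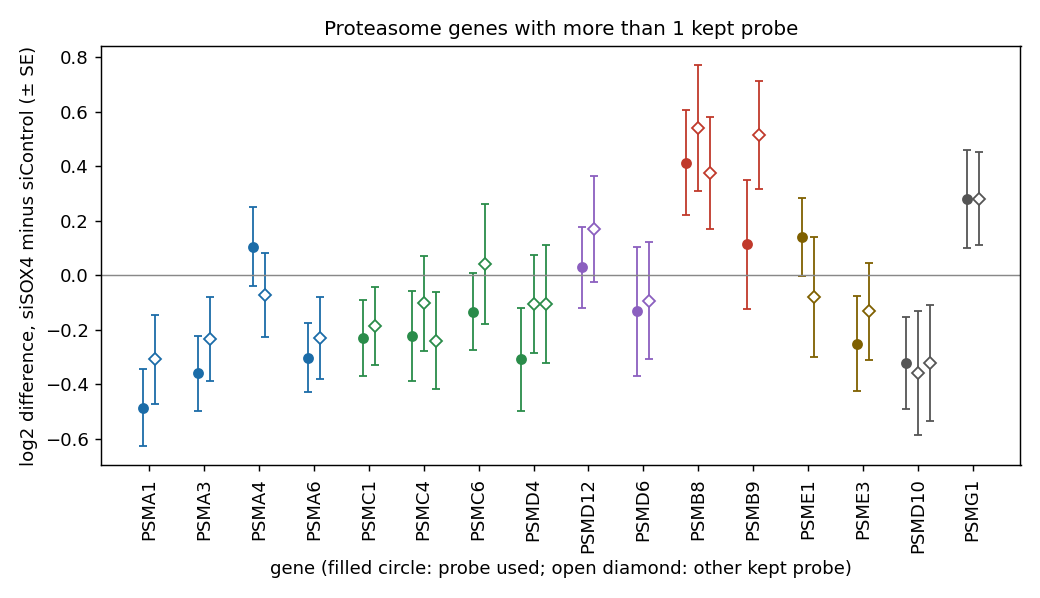
Log2 difference, siSOX4 minus siControl (y axis), with limma's standard error as bars, for each kept probe of the 16 proteasome genes with more than 1 (x axis); filled circles are the probes used and open diamonds the others. The 3 PSMB8 probes lie between 0.37 and 0.54 and the 3 PSMD10 probes between -0.36 and -0.32.

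For 3 subunit genes without a named probe, the authors' deposited table gives ratios of siControl to siSOX4, found through accessions. In the authors' deposited table the ratio was 1.23 for the lid gene PSMD7 and 1.03 for the ATPase gene PSMC5. For the lid gene PSMD13 the authors' deposited table holds 1.05 and 0.904. By the authors' deposited table PSMA1 had ratios of 1.25 and 1.44 on its detected probes and PSMB5 one of 0.792. Ratios over 1 stand for lower signal in siSOX4 samples. For PSMA7, which also lacks a named probe, no such ratio was found.

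Among 4 lists of genes around the proteasome, 0 genes passed the threshold (background 0%). Without siSOX4 sample 2, 4 of the NFE2L1 list, 3 of the associated factors, 2 of the ubiquitin list and 1 of the antigen processing list passed (background 24.3%). Without siSOX4 sample 1 these counts were 1, 0, 2 and 2 (background 11.7%). In the NFE2L1 list, 6 of 7 measured genes had lower signal (median -0.37), and for 5 both siSOX4 samples were below both controls, where all genes give 25.1%. MAFG, a small MAF partner, had log2 signals of 7.77 and 8.16 against 8.37 and 8.46 in the controls, a difference of -0.45 ± 0.20 (adjusted p = 0.396, limma) without overlap. The other kept probe of MAFG gave -0.71 ± 0.22, also below both controls. For MAFF (-0.07) the other kept probe gave 0.14 ± 0.36 with overlap. NGLY1, the glycanase that activates NFE2L1, had 8.19 and 8.58 against 8.79 and 8.85, a difference of -0.43 ± 0.19 (adjusted p = 0.404) with the same order. NFE2L2 (-0.39 ± 0.15), the segregase gene VCP (-0.37 ± 0.16) and NFE2L1 itself (-0.20 ± 0.16) were also below both controls. MAFK and DDI2 were not measured. At an unadjusted p under 0.05 there was 1 of 7 on the probes used, NFE2L2, where all genes give 14.8%. MAFG's other probe had an unadjusted p of 0.0114 (limma).

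Of 13 associated factors, all measured, 11 had lower signal (median -0.13), and 7 were below both controls, where all genes give 25.1%. Of these 7, SEM1 and UBE3C had a second kept probe of opposite sign. It gave 0.23 ± 0.18, above both controls, for SEM1 and 0.10 ± 0.17 with overlap for UBE3C. The second probe of ECPAS gave -0.30 ± 0.22, again below both controls. PAAF1, an assembly factor of the base, had log2 signals of 7.72 and 8.26 against 8.61 and 8.50, a difference of -0.56 ± 0.22 (adjusted p = 0.348, limma) without overlap. FBXO7, an F-box protein that binds the proteasome, had 6.69 and 8.15 against 7.87 and 7.89, so on this probe siSOX4 sample 1 was below and sample 2 above the controls (-0.46 ± 0.41, adjusted p = 0.684). Its other kept probes gave -0.49 ± 0.21, below both controls, and 0.08 ± 0.25 with overlap. The core maturation factor POMP was below both controls by -0.17 ± 0.12. The ubiquitin receptor ADRM1 differed by 0.02 ± 0.13 with overlap, and its other kept probe gave 0.17 ± 0.14, above both controls. The deubiquitinase gene USP14 was above both controls by 0.29 ± 0.18, though its second probe gave -0.16.

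Among ubiquitin and shuttle genes, 8 of 10 measured had lower signal (median -0.02). Of these 8, UBA1 (-0.03) had a second kept probe at 0.15 ± 0.14, above both controls. The further probes of UBQLN1 and UFD1 were also lower. SQSTM1, the autophagy receptor p62, which binds ubiquitinated cargo, had log2 signals of 13.00 and 13.22 against 13.60 and 13.72. It lay below both controls by -0.55 ± 0.13 or 1.47-fold, with the smallest adjusted p of these lists (0.172, limma). UBQLN2, a shuttle to the proteasome, had 9.29 and 9.78 against 9.72 and 10.13 and overlapped the controls (-0.39 ± 0.22, adjusted p = 0.506). In antigen processing 6 of 11 measured genes had higher and 5 lower signal (median 0.01). TAP2, a subunit of the peptide transporter whose gene neighbours PSMB8 and PSMB9, had 9.12 and 9.52 against 8.46 and 8.92. It was above both controls by 0.63 ± 0.22 (adjusted p = 0.310, limma), but its dimmer second probe gave -0.04. HLA-E had 9.96 and 10.43 against 9.88 and 10.20 and overlapped them (0.16 ± 0.20, adjusted p = 0.799), and TAP1 differed by 0.04 and B2M by -0.03.

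**Figure D4:**
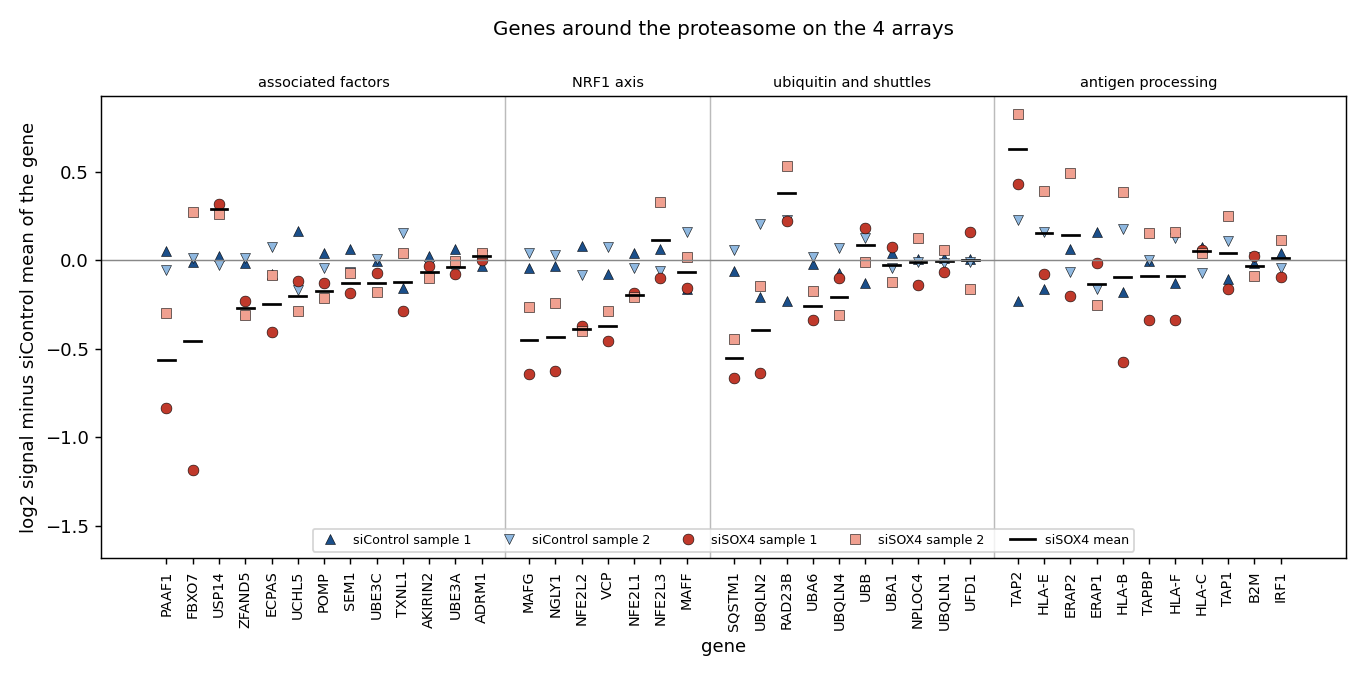
Log2 signal of the 41 measured genes of 4 lists around the proteasome on each array, minus the gene's siControl mean (y axis); markers are single arrays and the black bar is the siSOX4 mean. In the NFE2L1 list (labelled NRF1 axis) MAFG, NGLY1, NFE2L2, VCP and NFE2L1 have both siSOX4 samples below both controls, and among antigen processing genes TAP2 has both above.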

How the data were processed

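Biotin-labelled total RNA of 4 samples was measured on Illumina expression BeadChips, per the labels' protocols. The authors deposited intensities with their detection p-values, per the file headers, over 47323 probes. They are linear, with array medians of 76.6 to 82.4, and the values show no scaling between arrays. Which scanner software was used was not given here. The authors' deposited series matrix holds linear ratios, a signal over the median of its array, and their deposited fold table holds ratios of the siControl mean to the siSOX4 mean of that matrix; both were checked by recomputing them. No detection p-value column increased with the deposited signals of the array it is named for.

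Signals were corrected and normalized with limma 3.58.1 in R 4.3.3 (neqc: normexp with negative controls inferred from detection p-values, offset 16, quantile normalization, log2). Probes were kept, 20118 in all, where the detection p-value was below 0.05 on 2 or more arrays. Symbols came from the platform annotation: 30113 probes have 1 symbol, 8 several, and the rest are unnamed here. A gene is its kept probe of highest mean signal. Groups were compared by limma (lmFit, eBayes with a trend), two-sided, adjusted by Benjamini-Hochberg over all kept probes, threshold 0.05. An exact permutation test of 2 against 2 cannot go below p = 0.333 and was not used. Errors after ± are limma's standard errors (n = 2 per group). Precision is limited by the number of arrays.

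Members and lists were chosen with earlier results of these data known. Values on every array are given for SOX4, the catalytic, immunoproteasome and activator genes, the 2 genes of largest absolute difference in each class, and the 2 of each other list; other genes are given by their difference. Alternatives covered background correction, offset, normalization, probe filters, probe choice, the trend, the replicate number as a block, and leaving out each sample.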

Additional observations from a re-analysis of the deposited data

How the results depend on the processing

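With 2 arrays per group, the number of arrays limits what can be called. Of the alternatives that keep all 4 samples, none gave a proteasome gene past the threshold. Over all genes, 0 passed in the main fit, 1 with the authors' series matrix, 77 with no filter on dim probes and 133 with the replicate number as a block. The labels do not say that numbers pair samples, and same-numbered samples deviated together with a correlation of 0.11 across probes (2 pairs). The block left 0 proteasome genes past the threshold and 3 lower at an unadjusted p under 0.05, where the main fit had 5. That lower count was also 3 with the authors' matrix and with the mean of all kept probes, and 1 with no trend. The higher count, 1 in the main fit, was 0 with median scaling, with the authors' matrix and with no trend. The base median moved to -0.22 with median scaling, -0.21 with the authors' matrix and -0.11 with the mean of all probes. With median scaling the alpha ring median was -0.33 and the lid median -0.22, and with no filter the activator median was 0.064. PSMB10 turned to -0.034 with median scaling and to -0.036 with the authors' matrix. Under median scaling and the authors' matrix the beta ring median was -0.060 and -0.062, that of assembly chaperones turned to -0.028 and -0.030, and the activator median with median scaling was -0.12. Single genes were followed only where the rule above gives values on every array. With median scaling and the authors' matrix, PSMB6 (0.029 and 0.025), PSME1 (0.080 and 0.075) and PSME2 (0.047 and 0.042) moved by over 1.5 times. PSMD11 (-0.19) and PSMG3 (-0.21) did so with no background correction, and PSMG3 (-0.23) and PSMD9 (0.31) with the authors' matrix. With the mean of all probes PSME1 was 0.030, PSMB9 0.31, PSMD4 -0.17, TAP2 0.29 and FBXO7 -0.29. The cause of these shifts was not tested.

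Leaving out each sample in turn, proteasome genes past the threshold numbered 0 to 12, those with an unadjusted p under 0.05 numbered 0 to 9 higher and 0 to 12 lower, and 19 to 28 lay below and 6 to 15 above both controls. Over all genes these settings gave 1.87% to 16.2% higher, 1.67% to 19.4% lower, 34.6% to 44.2% below and 31.0% to 39.3% above. Where this leaves a group with 1 sample, that sample is assumed to vary like the other group. Medians ranged from -0.14 to 0.01 over all 41 genes, -0.44 to -0.087 for the alpha ring, -0.14 to 0.058 for the beta ring, -0.18 to -0.070 for the base, -0.27 to -0.11 for the lid, -0.18 to 0.41 for the immunoproteasome, -0.12 to 0.080 for activators and -0.09 to 0.03 for assembly chaperones. Genes past the threshold numbered 0 to 2 for antigen processing, 0 to 3 for associated factors, 0 to 4 for the NFE2L1 list and 0 to 2 for ubiquitin and shuttles. SOX4 ranged from -0.44 to -0.27. Single genes were again followed only where the rule above gives values on every array. Among these, the sign turned for FBXO7 (-1.17 to 0.28), PSMB9 (-0.18 to 0.41), PSME1 (-0.0066 to 0.29) and PSME2 (-0.15 to 0.33). It also turned for HLA-E (-0.077 to 0.40) and PSMB10 (-0.31 to 0.33), which were at -0.0071 and -0.12 without siControl sample 1. Genes not followed could turn as well. Against the control mean, siSOX4 samples 1 and 2 were at -0.53 and 0.27 for PSMD6 and at -0.19 and 0.23 for PSMB1. Counts below and above both controls, and the alternatives for the other lists, were chosen after seeing the data.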
